A study of Homo sapiens with 9 samples.

Results

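The genes described here lie in 1 stretch of the short arm of human chromosome 4, from the start of SLIT2 (hg38 position 20253260) to the end of TMEM33 (41960572), a length of 21.7 Mb. All annotated genes wholly inside the stretch with at least 10 counts in every library were taken, which gave 50 of the 223 annotated genes there and of the 58735 genes in the count table. Of the remaining genes, 99 had no count in any library and 74 had counts but fell under the minimum in at least 1 library. The ends were selected on fold changes between the hairpin groups and their control in these same libraries, so fold changes and calls among these 50 genes are given as a description, with no test of the interval and no p-value for a member. OVCAR3, an established line of human ovarian carcinoma cells, carried either a scrambled control hairpin (scramble, 3 libraries) or 1 of a pair of short hairpin RNAs against GPX3, a secreted selenium-containing glutathione peroxidase (sh76 and sh78, 3 libraries each). All 9 cultures were harvested after 72 h and their poly-A RNA was sequenced without strand information. No label says that the replicates of a group came from separately infected cultures, so the spread between them may be technical.

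Genes that lie side by side on a human chromosome are for the most part unrelated in function, and this stretch is a mixture of that kind. It holds a guidance ligand (SLIT2), the DNA-binding factor of the Notch pathway (RBPJ), a coactivator of mitochondrial genes (PPARGC1A), a clamp-loader subunit (RFC1), a cohesin regulator (PDS5A), a ribosomal protein (RPL9), ubiquitin enzymes (UBE2K and UCHL1) and a pair of Toll-like receptors (TLR1 and TLR6). SLC34A2, a sodium-dependent phosphate transporter, is well known as a surface antigen of ovarian carcinoma. SEPSECS makes the selenocysteine-charged transfer RNA on which selenoproteins such as GPX3 depend.

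The upstream sequences of 4 members are shown because these genes cover the patterns described here: SLIT2 was lower with both hairpins, N4BP2 and LIMCH1 were lower with sh76 than with sh78, and CHRNA9 had the highest fold change with sh76. Each is taken from the 250 bases before the RefSeq gene start on build GRCh38.p14, read 5′ to 3′ on the plus strand. The SLIT2 window lies 1355 bases before the start of SLIT2 in the count table. Those of N4BP2 and CHRNA9 were shortened to 226 and 246 bases to leave out the gene as the count table places it. Capitals mark a GC box, the letters GGGCGG on either strand. The windows are chr4:20251655-20251904 for SLIT2, chr4:40056600-40056825 for N4BP2, chr4:41359357-41359606 for LIMCH1 and chr4:40335083-40335328 for CHRNA9.
SLIT2: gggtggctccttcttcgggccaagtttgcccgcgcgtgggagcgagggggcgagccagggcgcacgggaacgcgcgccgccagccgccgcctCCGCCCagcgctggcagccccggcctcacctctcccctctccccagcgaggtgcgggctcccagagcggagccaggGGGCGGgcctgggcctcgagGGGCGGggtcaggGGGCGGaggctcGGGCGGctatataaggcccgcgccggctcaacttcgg
N4BP2: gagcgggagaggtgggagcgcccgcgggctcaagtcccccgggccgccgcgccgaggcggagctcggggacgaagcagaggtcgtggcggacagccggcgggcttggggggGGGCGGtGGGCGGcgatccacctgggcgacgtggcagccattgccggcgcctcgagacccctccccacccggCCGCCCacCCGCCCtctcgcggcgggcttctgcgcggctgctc
LIMCH1: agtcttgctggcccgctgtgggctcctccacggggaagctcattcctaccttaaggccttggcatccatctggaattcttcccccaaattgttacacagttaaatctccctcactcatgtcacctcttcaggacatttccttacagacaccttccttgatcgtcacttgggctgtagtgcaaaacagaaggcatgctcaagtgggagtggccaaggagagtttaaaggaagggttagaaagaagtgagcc
CHRNA9: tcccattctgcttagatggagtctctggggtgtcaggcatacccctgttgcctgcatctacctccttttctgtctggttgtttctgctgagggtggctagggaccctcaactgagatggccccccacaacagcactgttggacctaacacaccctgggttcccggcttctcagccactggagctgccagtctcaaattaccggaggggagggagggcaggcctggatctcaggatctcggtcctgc
SLIT2 had 5 GC boxes in a window of 77.2% G and C, and N4BP2 had 4 in a window of 79.2%. LIMCH1, at 50%, and CHRNA9, at 58.1%, had no match to any of the 5 motifs searched. Over the 41 members with a RefSeq promoter entry, the 250 bases before the start held a GC box in 53.7% against 42.3% of 27305 genes, and a CCAAT box (CCAAT) in 36.6% against 33%. The shares for TATAAA were 7.32% and 11.1%, for the E-box CACGTG 4.88% and 6.49%, and for the cyclic AMP response element TGACGTCA 2.44% and 1.77%, in that order. The members' windows had a median G and C content of 66% against 58%, and a median of 22 CpG pairs against 11. The 2 sets are not alike: the members passed a count minimum, and the 27305 genes were not filtered on counts. For members the RefSeq start nearest the counted gene start was used, and for the 27305 genes the first listed. Only 22 of the 41 starts lay within 100 bases of the counted gene start. The part of this in the differences was not tested. All motifs were searched on both strands, and a match is a run of letters, not a shown binding site.

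Between 14652965 and 21327562 counts were assigned per library. GPX3 itself was at 133 ± 34.8 CPM (read counts corrected for library depth; SD, n = 3) with the scramble hairpin, 55.9 ± 0.852 with sh76 and 30.6 ± 4.01 with sh78. All 9 epithelial and ovarian carcinoma markers were detected, among them keratins and PAX8. Their summed level was 11881 to 12689 CPM in scramble, 10905 to 11624 in sh76 and 9920 to 10296 in sh78, so the 3 groups did not overlap, and the part of this in the values below was not tested. The summed fibroblast markers were at 26.9 to 55 CPM, endothelial markers at 6.35 to 10.6 and leukocyte markers at 1.43 to 3.07 over the 9 libraries. In each of these sums every group's range overlapped the others'. Only 2 of 5 fibroblast, 2 of 3 endothelial and 2 of 4 leukocyte markers passed the count filter, so each sum rests on few genes. In bulk RNA, fewer cells of a type and less RNA per cell cannot be told apart.

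With sh76, 43 of the 50 members were below scramble, and 13 of them were called lower by edgeR's quasi-likelihood test at an adjusted p under 0.05. Those 13 were SLIT2, ADGRA3, PPARGC1A, RBPJ, KLHL5, SMIM14, UBE2K, N4BP2, RBM47, APBB2, UCHL1, LIMCH1 and TMEM33. Of all 17023 genes tested, 2.16% were called lower and 1.43% higher. No member was called higher by edgeR, with 0 at an unadjusted p under 0.05 and 0 by DESeq2, which called 16 members lower. The median log2 fold change of the members was −0.28, or 82.1% of the scramble level, with quartiles of −0.44 and −0.11 and a range from −1.07 to 0.48. The median over all genes tested was 0.01. All 3 sh76 libraries were below all 3 scramble libraries in 24 members (48%), beside 11.7% of all genes. With same-numbered libraries compared within their replicate number, 27 members were called lower and 1, CHRNA9, higher, beside 10.7% of all genes called lower in that fit. The others called lower there were DHX15, CCDC149, LGI2, SEPSECS, PI4K2B, SLC34A2, SEL1L3, SMIM20, C4orf19, TBC1D1, KLF3, WDR19, RPL9 and NSUN7. SLIT2, UBE2K, RBM47, APBB2, UCHL1 and TMEM33 were called whichever library was left out. The call of RBPJ was lost without sh76 replicate 3, those of KLHL5 and N4BP2 without sh76 replicate 2, that of PPARGC1A without scramble replicate 2, and that of SMIM14 without either of the last 2. LIMCH1 and ADGRA3 lost their calls without 4 and 7 of the 9 libraries, left out in turn, and limma on log2(FPKM + 1) called neither of them nor PPARGC1A.

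With sh78, 39 members were below scramble and 5 were called lower: SLIT2, KLHL5, UBE2K, RBM47 and APBB2. Among all genes, 2.56% were called lower and 1.85% higher. All 5 were also among the 13 called with sh76, which makes 100% of the sh78 calls and 38.5% of the sh76 calls, and both comparisons use the same scramble libraries. By edgeR 0 members were called higher with sh78, against 1 at an unadjusted p under 0.05 and 0 by DESeq2. DESeq2 called 7 lower, and the paired fit 13, beside 10.1% of all genes called lower in the paired fit. The others in the paired fit were SLC34A2, SEL1L3, SMIM20, RBPJ, RPL9, LIAS, UCHL1 and TMEM33. The members' median log2 fold change was −0.12, with quartiles of −0.24 and −0.02. In 14 members all sh78 libraries were below all scramble libraries, which was so in 11.2% of all genes. The 5 calls came to 3 without scramble replicate 2, sh76 replicate 2 or sh78 replicate 3, and to 2 without scramble replicate 3 or sh78 replicate 1. SLIT2 and RBM47 were called whichever library was left out, while UBE2K lost its call without 2 of the 9 libraries, KLHL5 without 5 and APBB2 without 6; limma on log2(FPKM + 1) called neither KLHL5 nor APBB2.

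Compared with each other, the cultures with sh78 had the higher level in 38 of 50 members, with a median log2 difference of 0.16, which was 0.09 without sh76 replicate 1. PPARGC1A, AC133963.1, N4BP2, APBB2, UCHL1, LIMCH1 and TMEM33 were called higher with sh78, which is 7 members, beside 1.97% of all genes called higher and 1.72% called lower. By edgeR 0 members were called lower, and 0 at an unadjusted p under 0.05 and by DESeq2. Of the 7 called, 6 were also called lower with sh76 against scramble; AC133963.1 was not. All sh78 libraries lay above all sh76 libraries in 15 members, beside 10.9% of all genes. The paired fit called 13 members higher and CHRNA9 lower, beside 9.69% of all genes called higher. The further genes called higher there were ADGRA3, CCDC149, TBC1D1, KLF3, SMIM14 and NSUN7. These 7 calls depended on single libraries: there were 0 without sh76 replicate 1, when 13 members were still higher and 2 lower at an unadjusted p under 0.05. Without sh76 replicate 2 or any 1 sh78 library 1 call was left, and without scramble replicate 2 or sh76 replicate 3 there were 4.

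**Figure D1:**
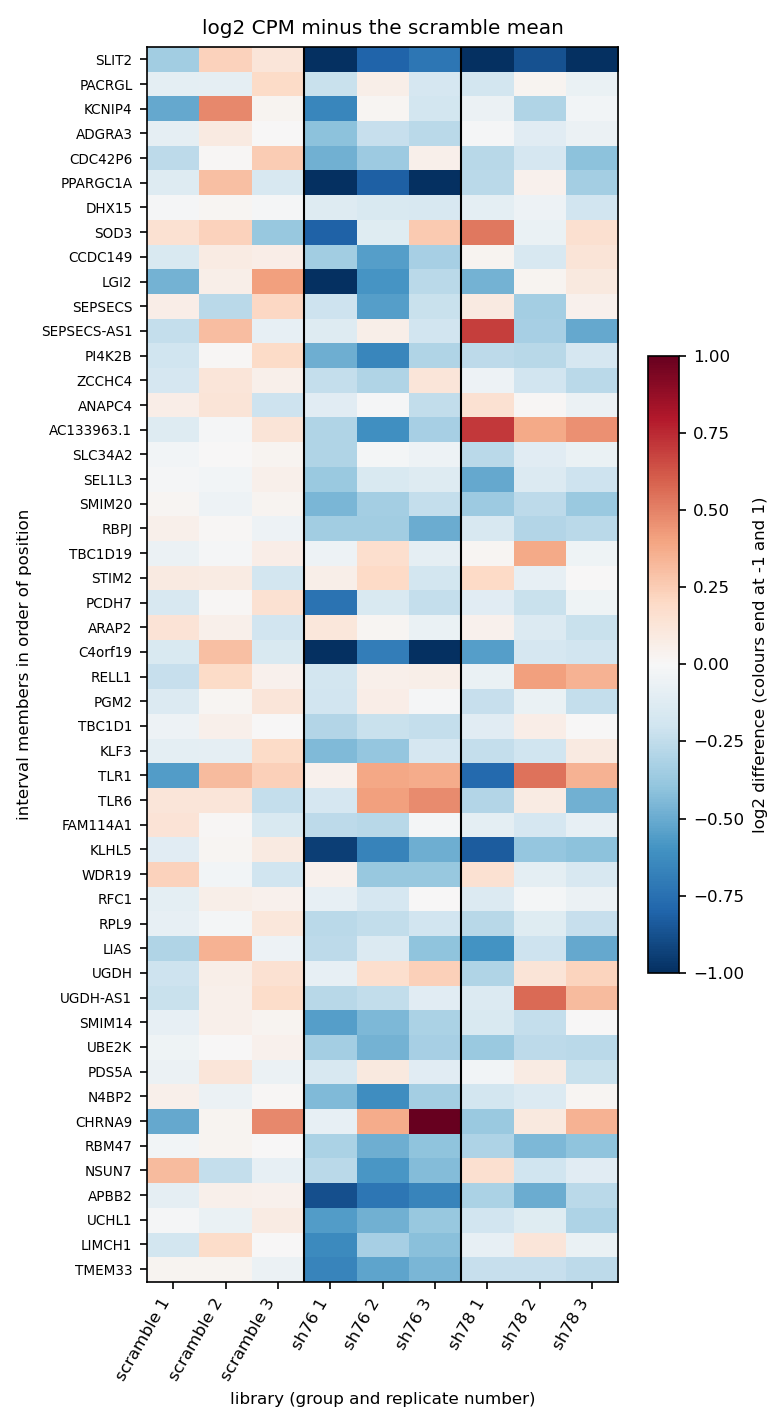
Each cell is the log2 CPM of 1 member in 1 library minus the mean of the 3 scramble libraries, with the 50 members in order of position from SLIT2 (top) to TMEM33 (bottom) and colours that end at −1 and 1. The sh76 columns are blue in most rows, and the sh78 columns are paler. STIM2, ARAP2, RELL1, TLR1, TLR6, UGDH and CHRNA9 are above the scramble mean (red, in places faint) in at least 2 of the 3 sh76 libraries.

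SLIT2, the secreted ligand of ROBO receptors and the first gene of the stretch, was among the lowest members with both hairpins. Its level was 24.8, 37 and 34.4 CPM in the scramble libraries, 13.6, 18 and 19.2 in sh76, and 15.7, 17.3 and 15.5 in sh78. Every knockdown library was therefore below every scramble library, while the sh76 and sh78 values overlapped. The log2 fold change was −0.91 (SE 0.15) with sh76 and −0.99 (SE 0.16) with sh78. SLIT2 remained called in both comparisons under each alternative fit and each left-out library. ADGRA3, an adhesion G protein-coupled receptor, was at 69.5 ± 4.28 CPM in scramble, 56.4 ± 3.59 in sh76 and 66.7 ± 2.31 in sh78 (SD, n = 3). It was called lower with sh76, at −0.30, and had a log2 fold change of −0.06 with sh78. PCDH7, a protocadherin of cell adhesion that stands nearly alone in the middle of the stretch, had values of −0.35 and −0.13 and was called in neither comparison.

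Of the 7 members not below scramble with sh76, TLR1, TLR6, STIM2 and CHRNA9 were listed in this group of guidance, adhesion and receptor genes. STIM2 is not a receptor of the cell surface. TLR1 and TLR6, which encode receptors of bacterial lipopeptides, overlap each other on the same strand and had log2 fold changes of 0.24 and 0.28 with sh76. TLR1 was near the count minimum, at 0.771 to 1.53 CPM in scramble, 1.23 to 1.6 in sh76 and 0.646 to 1.79 in sh78. For TLR6 the libraries gave 2.83, 2.82 and 2.18 CPM with the scramble hairpin, 2.28, 3.49 and 3.63 in sh76, and 2.1, 2.75 and 1.82 in sh78. For both genes the groups overlapped. STIM2, a calcium sensor of the endoplasmic reticulum, had values of 0.03 and 0.04 with sh76 and sh78. RELL1, a membrane protein related to a tumour necrosis factor receptor, had −0.03 and 0.23, and LGI2, a secreted leucine-rich protein, −0.65 and −0.15. Of the 9 members in this group, 5 were below scramble with sh76, and SLIT2 and ADGRA3 were the 2 called. In the paired fit 3 were called lower and CHRNA9 higher. Of all genes, 2.16% were called lower with sh76, or 10.7% in the paired fit. The groups by role are parts of an interval selected on fold changes, so their counts are no result about a role.

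CHRNA9, a subunit of nicotinic acetylcholine receptors, had the highest log2 fold change with sh76 of all members, 0.48, which was 0.11 without sh76 replicate 3, 0.26 without scramble replicate 1 and 0.76 without scramble replicate 3. In each group replicate 1 was lowest and replicate 3 highest. Its level was 3.02, 4.46 and 6.14 CPM in scramble replicates 1, 2 and 3, 4.13, 5.67 and 9.21 in sh76, and 3.34, 4.68 and 5.59 in sh78. The 3 groups overlapped, but each sh76 library was above the scramble library of the same number. CHRNA9 was called higher with sh76 in the paired fit and not in the unpaired one. It sits between N4BP2 and RBM47, which were both called lower with sh76.

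All 5 members that act in transcription or on chromatin were below scramble with sh76, and PPARGC1A and RBPJ were called (3 in the paired fit). Beside them, 2.16% of all genes were called lower, or 10.7% in the paired fit. PPARGC1A was read at 6.17, 8.33 and 6.03 CPM in scramble, 3.08, 3.78 and 3.2 in sh76, and 5.6, 6.95 and 5.33 in sh78. The sh76 libraries were below all others, and those of sh78 overlapped scramble. Its log2 fold change was −1.02 (SE 0.19) with sh76 and −0.20 (SE 0.19) with sh78, and the difference between the hairpins was 0.82. On log2(FPKM + 1), where so low a gene is shrunk, these values were −0.31 with sh76 and 0.24 between the hairpins. RBPJ was at 64.7, 62.9 and 60.3 CPM in scramble, 49, 49.3 and 44.3 in sh76, and 56.2, 51.2 and 51.8 in sh78. Its 3 groups did not overlap, with sh76 lowest, and the values were −0.40 with sh76 and −0.24 with sh78. RBPJ was called with sh78 in the paired fit and not in the unpaired one. KLF3, a zinc-finger repressor, had log2 fold changes of −0.33 and −0.12, RFC1 −0.08 and −0.08, and PDS5A −0.05 and −0.05.

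The ubiquitin and cell-cycle members held 3 of the genes called with sh76 among 5, and 4 in the paired fit. The shares of all genes called lower were 2.16% and 10.7%, in that order. KLHL5, a kelch-domain protein of the family that forms ubiquitin ligase adaptors, was at 46.5, 50.8 and 53.4 CPM in scramble, 26, 31.6 and 35.6 in sh76, and 28.1, 38.3 and 37.7 in sh78. It was lower in every knockdown library, with log2 fold changes of −0.69 and −0.54. UBE2K, a ubiquitin-conjugating enzyme, was at 159, 163 and 168 CPM in scramble, 129, 118 and 130 in sh76, and 127, 136 and 135 in sh78. Here too the knockdown libraries were all below scramble and overlapped each other, with values of −0.38 and −0.30. UCHL1, a deubiquitinating enzyme abundant in neurons and in many carcinomas, was at 341, 329 and 364 CPM in scramble, 234, 246 and 265 in sh76, and 302, 316 and 278 in sh78. Its 3 groups were fully apart, with sh78 between the others. The log2 fold changes of UCHL1 were −0.47 with sh76 and −0.21 with sh78. ANAPC4, a subunit of the anaphase promoting complex, had values of −0.13 and 0.03, and SEL1L3 −0.21 and −0.28.

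Every 1 of the 6 members of the RNA and translation group was below scramble with both hairpins, and with sh76 2 were called, or 5 in the paired fit. Among all genes the shares called lower with sh76 were 2.16% and 10.7%. RBM47, an RNA-binding protein of alternative splicing and RNA editing, was at 177, 185 and 180 CPM in scramble, 145, 128 and 137 in sh76, and 145, 132 and 137 in sh78. Both sets of knockdown libraries were below scramble, by −0.40 and −0.39 on the log2 scale, and they overlapped each other. N4BP2, a protein that binds the ubiquitin ligase NEDD4 and carries a nuclease domain, was at 44.6, 41.4 and 43.3 CPM in scramble, 31.7, 28 and 34.1 in sh76, and 38.1, 39 and 43.7 in sh78. The sh76 libraries were below all others, and the values were −0.46 and −0.10. RPL9, a protein of the large ribosomal subunit, had log2 fold changes of −0.24 and −0.21, NSUN7 of −0.44 and −0.06, the splicing helicase DHX15 of −0.15 and −0.11, and the ribosomal RNA methyltransferase ZCCHC4 of −0.13 and −0.18.

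Among the trafficking, cytoskeleton and membrane genes, 10 of 12 were below scramble with sh76. SMIM14, APBB2, LIMCH1 and TMEM33 were called, against 8 in the paired fit. Over all genes, 2.16% were called lower with sh76, and 10.7% in the paired fit. APBB2, an adaptor that binds the amyloid precursor protein, was at 50.2, 55.3 and 54.8 CPM in scramble, 29, 32.5 and 33.7 in sh76, and 42.9, 37.7 and 44.4 in sh78. The 3 groups did not overlap, and sh78 lay between the others. APBB2 was the 1 member called in all 3 comparisons, with log2 values of −0.75 (sh76 against scramble), −0.36 (sh78 against scramble) and 0.39 (sh78 against sh76), each with an SE of 0.09. LIMCH1, an actin- and myosin-binding protein, was at 73.4, 94.6 and 83.2 CPM in scramble, 53.2, 66.1 and 62 in sh76, and 78.5, 90.3 and 79.4 in sh78. Its sh78 libraries lay within the range of scramble, at −0.02, while those of sh76 were below both, at −0.47.

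TMEM33, a membrane protein of the endoplasmic reticulum and the last gene of the stretch, was at 103, 103 and 96.7 CPM in scramble, 63.8, 69.6 and 73.4 in sh76, and 86, 85.8 and 84.4 in sh78. The groups were apart, with log2 fold changes of −0.55 and −0.24, and sh78 was called above sh76. SMIM14, a small membrane protein, had values of −0.44 and −0.13. TBC1D1, a Rab GTPase-activating protein of glucose transporter traffic, had −0.25 and −0.01, WDR19, a protein of ciliary transport, −0.24 and −0.04, and SMIM20, an assembly factor of cytochrome c oxidase, −0.34 and −0.33. TBC1D19 and ARAP2 were the 2 members of this group not below scramble with sh76, each at 0.02.

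**Figure D2:**
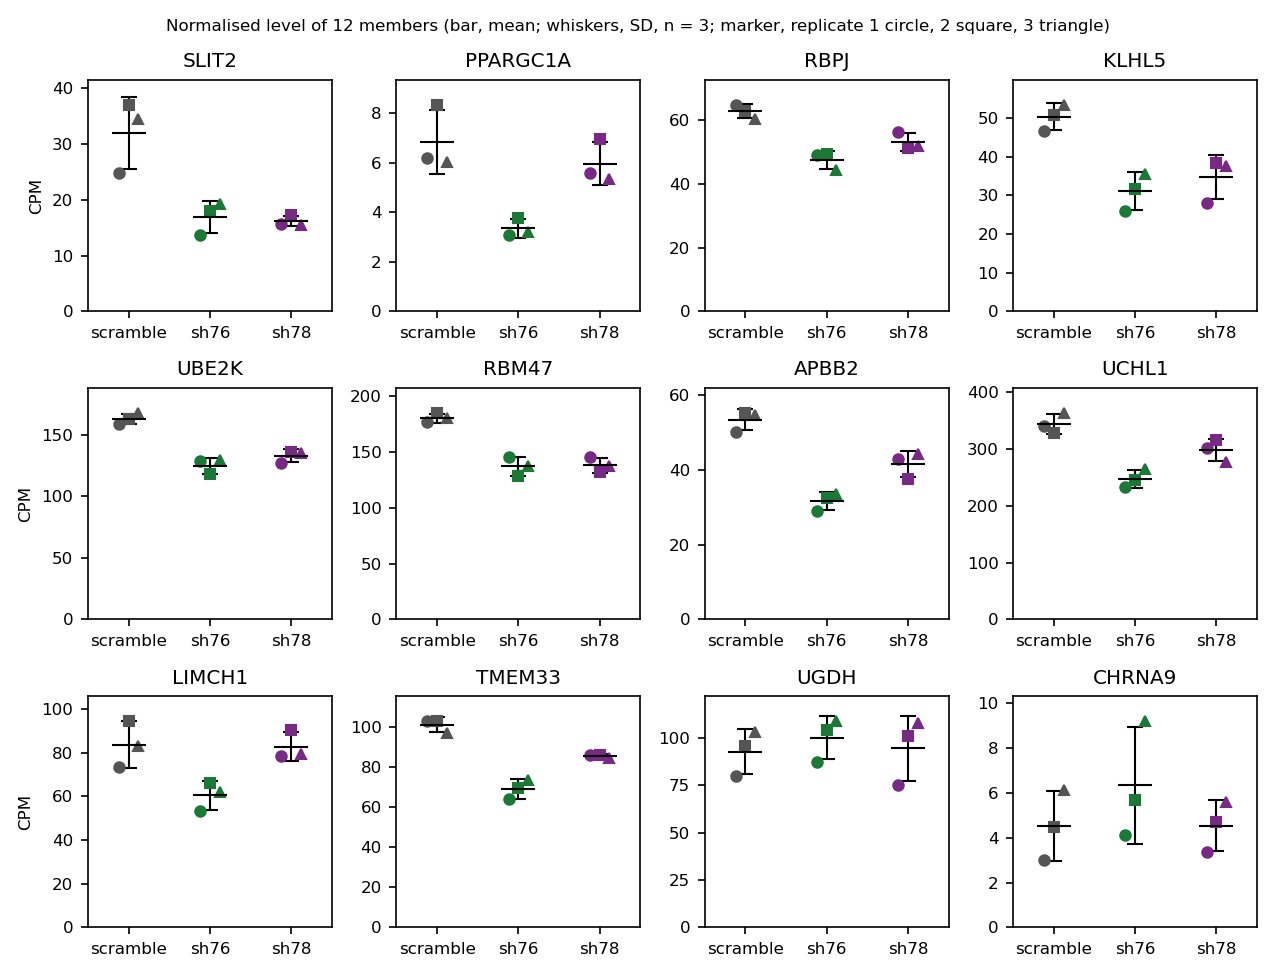
Points are the CPM of 12 members in the 9 libraries, with the mean (bar) and SD (whiskers, n = 3) of each group on axes that start at 0. SLIT2, KLHL5, UBE2K and RBM47 are lower in both knockdown groups, PPARGC1A and LIMCH1 with sh76, UCHL1, APBB2 and TMEM33 step from scramble to sh78 to sh76, and UGDH and CHRNA9 overlap in all groups.

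Of the 8 metabolic enzymes and transporters, 7 were below scramble with sh76. In this group edgeR called 0, with 2 at an unadjusted p under 0.05, 1 by DESeq2 and 3 in the paired fit. That paired fit called 10.7% of all genes lower with sh76. SLC34A2 was the most abundant member per length, at a mean of 353 FPKM (library-scaled counts per kilobase of gene length) over all libraries. Next were UCHL1 at 129, RPL9 at 39.8, UBE2K at 26.6 and UGDH at 23.5. SLC34A2 was read at 1861, 1906 and 1951 CPM in scramble, 1544, 1878 and 1842 in sh76, and 1581, 1770 and 1821 in sh78. Its log2 fold changes were −0.12 and −0.14. Scramble and sh76 overlapped, all sh78 libraries were below scramble, and the paired fit called SLC34A2 lower with both hairpins. UGDH, which makes the UDP-glucuronate of proteoglycan synthesis, was at 79.7, 95.9 and 103 CPM in scramble, 87.5, 104 and 109 in sh76, and 75.1, 101 and 108 in sh78. The groups overlapped, and its fold changes were 0.11 and 0.03. LIAS, the synthase of the cofactor lipoate, was among the 3 lowest members with sh78 at −0.47, and had −0.29 with sh76. SEPSECS had values of −0.34 and −0.07, the lipid kinase PI4K2B −0.49 and −0.25, the phosphoglucomutase PGM2 −0.04 and −0.18, and the extracellular superoxide dismutase SOD3 −0.17 and 0.23.

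C4orf19, a gene of little described function, had the lowest log2 fold change with sh76, −1.07, on few counts. It was read at 1.61, 2.23 and 1.61 CPM in scramble, 0.74, 1.07 and 0.763 in sh76, and 1.18, 1.58 and 1.56 in sh78. All knockdown libraries were below scramble, and C4orf19 was called with sh76 in the paired fit and not in the unpaired one. AC133963.1, a processed pseudogene, had the highest log2 fold change of the members with sh78. It was at 1.61, 1.76 and 1.95 CPM in scramble, 1.42, 1.11 and 1.38 in sh76, and 2.96, 2.34 and 2.47 in sh78. Those sh78 libraries were above all others, with log2 fold changes of 0.55 against scramble and 0.99 against sh76 (0.51 on log2(FPKM + 1)), and a pseudogene can share reads with its parent gene. UGDH-AS1, an antisense transcript, had −0.23 with sh76 and 0.27 with sh78, and its reads cannot be told from those of UGDH and SMIM14 where they overlap.

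Along the chromosome the members fell into a first cluster of 22 genes from SLIT2 to STIM2, PCDH7 and ARAP2 alone in the gap, and a second cluster of 26 genes from C4orf19 to TMEM33. With sh76 the first 20 members in order, SLIT2 to RBPJ, were all below scramble. The 7 members that were not were TBC1D19, STIM2, ARAP2, TLR1, TLR6, UGDH and CHRNA9. The clusters had medians of −0.29 and −0.27 with sh76, with 4 and 9 members called lower, and −0.13 and −0.12 with sh78. The 8 members that start at 40 Mb or beyond, a limit chosen after the values were seen, had a median of −0.47 with sh76 and −0.15 with sh78. Of these 8, 6 were called lower with sh76. The share of all genes called lower with sh76 was 2.16%. With sh78 the longest unbroken run below scramble was the last 11 members, SMIM14 to TMEM33. Across the 50 members, the log2 fold change with sh76 had a Spearman rho of −0.05 with position, −0.14 with mean log2 CPM and −0.20 with gene span. These are descriptions over genes that share the same libraries.

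Among the 3 nearest tested genes outside each end, only BEND4 was above scramble with sh76, while with sh78 the values were of both signs. SLC30A9, a zinc transporter and the next gene after TMEM33, had log2 fold changes of −0.24 and −0.16, and ATP8A1, a phospholipid flippase further on, −0.42 and 0.26, with neither called against scramble. ATP8A1 was called higher with sh78 than with sh76, by 0.69 (edgeR adjusted p = 0.00977). In the paired fit SLC30A9 was called lower with both hairpins, ATP8A1 lower with sh76 and higher with sh78, and LCORL lower with sh76. BEND4, which lies between SLC30A9 and ATP8A1, had 0.32 and 0.52. Before SLIT2, LCORL had −0.29 and 0.03, and the noncoding genes LINC02438 and AC024230.1 had −0.40 and −0.27 with sh76. The 115 genes tested before the interval had a median of −0.13 with sh76, and 83 of them (72.2%) were below scramble. Of these 115, 4 (3.48%) were called lower, beside 2.16% of all genes. All 3 sh76 libraries were below all 3 scramble libraries in 29.6% of them, beside 11.7% of all genes, so lower values with sh76 were also found outside the interval. Of the 22 genes between TMEM33 and 50 Mb, 14 were below scramble, with a median of −0.05, and the 418 genes from 50 Mb on had a median of −0.01. With sh78 these 3 medians were −0.05, −0.07 and 0.03.

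The 561 other tested genes of chromosome 4, of which 6 lie inside the interval under the count minimum, had a median of −0.03 with sh76, with 58.5% below scramble, 13 called lower and 10 higher. With sh78 they had a median of 0.00, 14 called lower and 8 higher. Limited to genes with 10 counts in every library, as the members are, the rest of the chromosome held 488 genes with medians of −0.04 and 0.01. In bins of 5 Mb with at least 5 genes, the 4 lowest of 35 with sh76 were all bins that hold members. They were at 40 to 45 Mb (−0.41), 20 to 25 Mb (−0.30), 35 to 40 Mb (−0.23) and 25 to 30 Mb (−0.17). The interval's ends were selected on such fold changes, so this order is a description only. With sh78 the lowest bin, 90 to 95 Mb at −0.36 with 7 genes, held no member, and neither did the second lowest at 10 to 15 Mb, at −0.16. Bins with members came next, at 25 to 30 Mb (−0.16), 20 to 25 Mb (−0.15) and 40 to 45 Mb (−0.13). Over whole chromosomes, medians with sh76 ran from −0.06 on chromosome 21 to 0.06 on chromosomes 1 and 8.

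**Figure D3:**
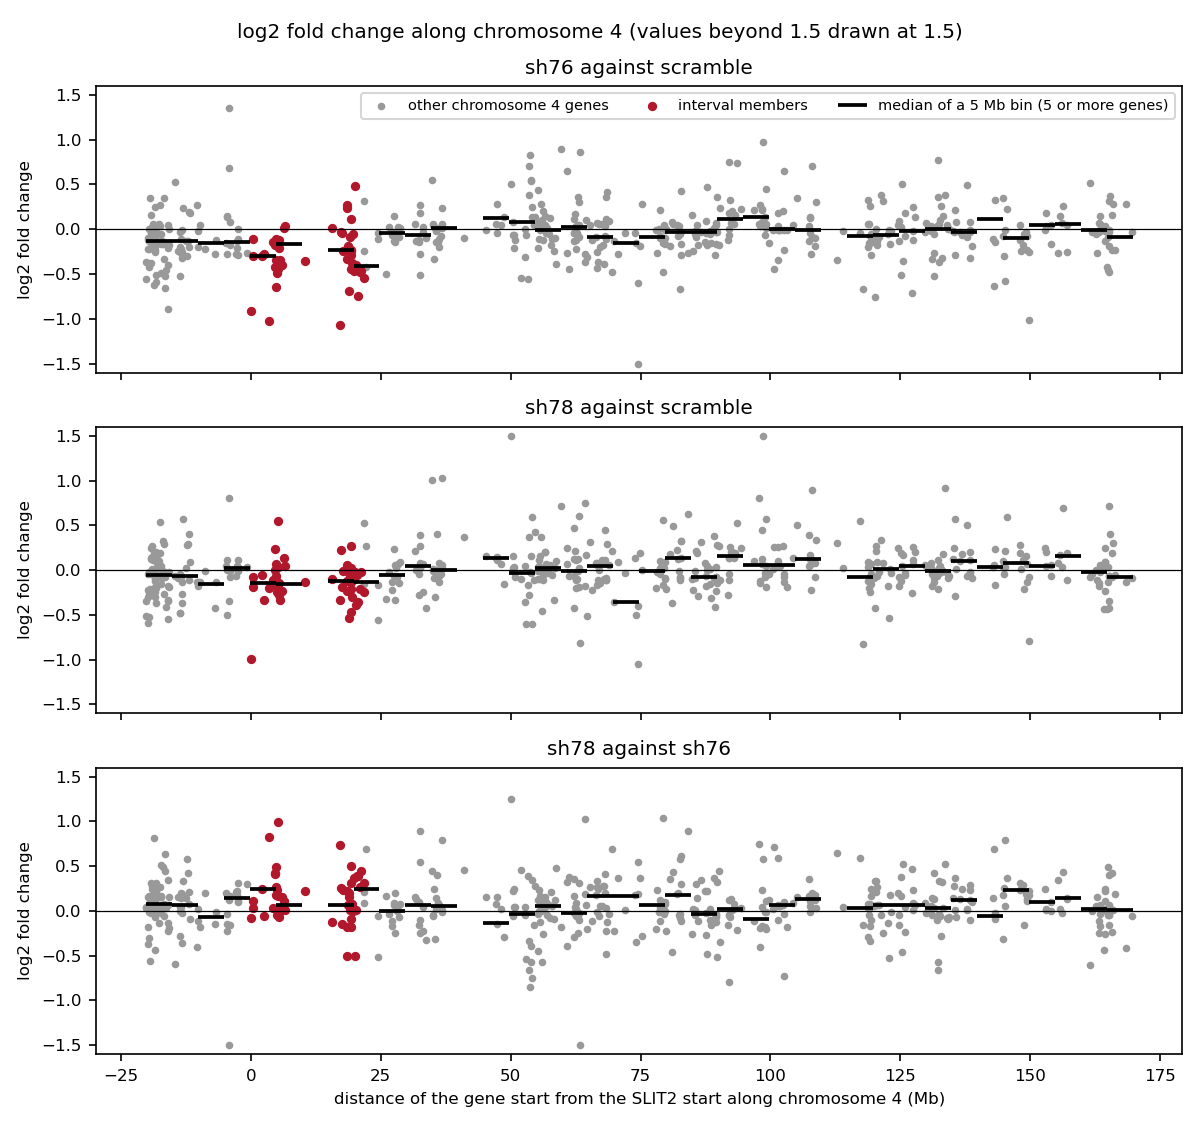
Points are chromosome 4 genes with at least 10 counts in every library, placed by the distance of their start from the start of SLIT2 in Mb, against the log2 fold change (values beyond 1.5 drawn at 1.5). Members are red, and black lines are medians of 5 Mb bins with 5 or more genes, of which the lowest with sh76, at −0.41, is at the right end of the red points.

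**Figure D4:**
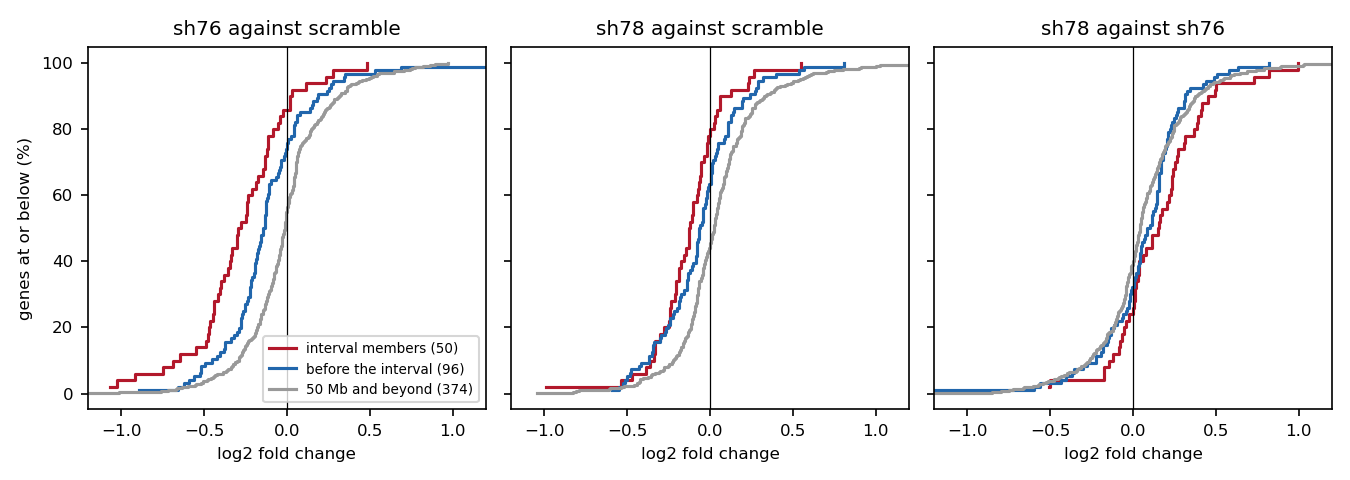
Curves give the percentage of genes at or below each log2 fold change for the 50 members, 96 genes before the interval and 374 genes from 50 Mb on, all with 10 counts in every library. With sh76 the members lie furthest to the left (median −0.28), the genes before the interval next (−0.14) and the rest near 0 (−0.01).

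Library by library, the median of log2 CPM minus the scramble mean over the members was −0.30, −0.27 and −0.23 in sh76 replicates 1, 2 and 3, and −0.17, −0.13 and −0.09 in those of sh78. Each scramble library set against the other 2 gave −0.13, 0.06 and 0.05, so scramble replicate 1 was within the range of the sh78 libraries. All sh76 libraries were below all scramble libraries by this measure, and the sh78 range overlapped that of scramble. Between libraries of the same number, the median member differed by −0.28, −0.31 and −0.28 for sh76 and by −0.08, −0.12 and −0.15 for sh78. The rest of chromosome 4 had medians from −0.06 to 0.03 over the 9 libraries. The members took 0.435% to 0.452% of all counts in scramble, 0.36% to 0.399% in sh76 and 0.384% to 0.407% in sh78. A large part of this was SLC34A2 alone, with 0.187% to 0.191% in scramble, 0.157% to 0.189% in sh76 and 0.16% to 0.18% in sh78. The share is therefore not a measure of the members in general.

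**Figure D5:**
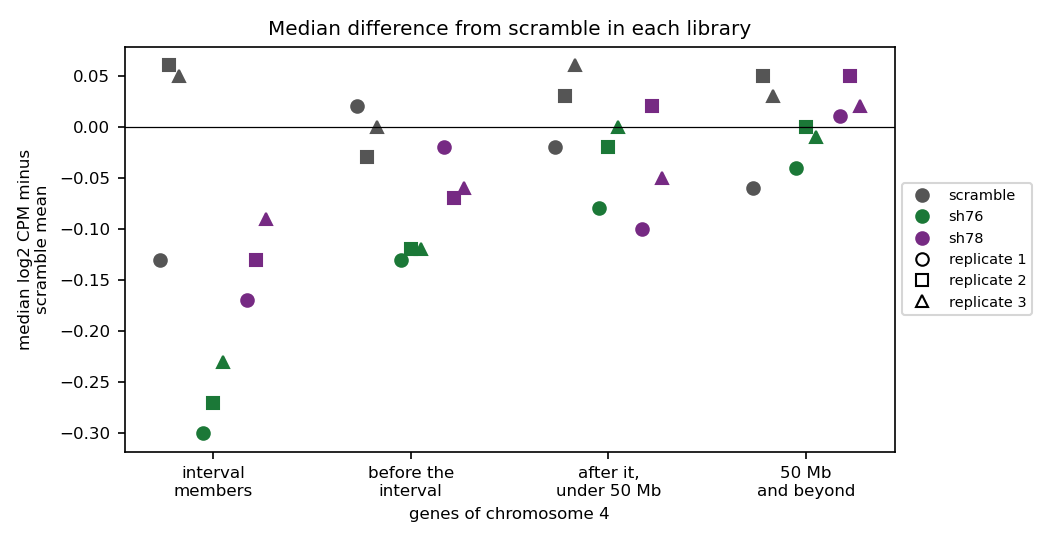
Each point is the median, over the genes of 1 stretch of chromosome 4, of log2 CPM minus the scramble mean (for a scramble library, minus the mean of the other 2). For the members the sh76 libraries lie at −0.30 to −0.23, under the sh78 libraries at −0.17 to −0.09, and for genes from 50 Mb on all 9 lie between −0.06 and 0.05.

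Members were also divided by their level. In the 25 members with the higher mean CPM, 24 were below scramble with sh76, 12 were called lower and the median was −0.35. Among the 25 with the lower mean CPM, 19 were below, 1 was called and the median was −0.17. Both sets are parts of an interval selected on fold changes, and 2.16% of all genes were called lower with sh76. The lowest counts just inside the minimum were 12, for SOD3, C4orf19, TLR1 and SEPSECS-AS1, and the genes just outside it were KLF3-AS1, with a lowest count of 8 and a fold change of −0.45 with sh76, LINC02473, with 5 and −0.52, and AC092436.2 and AC095057.3, with 4 each and 0.43 and −0.05. Overlap with another annotated gene touched 36 of the 50 members, such as RPL9 with LIAS and SEL1L3 with SMIM20, and without strand information such reads cannot be assigned to 1 of the genes. Among the 14 members that overlap no other annotated gene, 3 were called with sh76 and 0 with sh78.

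Partners of the members that lie elsewhere in the genome were followed through lists set by function. These lists were chosen with earlier results of these data known. Their counts and p-values are therefore a description, and no independent test of the members. RBPJ is the factor through which Notch receptors switch on the HES and HEY repressors. The list held 18 tested genes: Notch receptors, ligands, RBPJ targets and the coactivators MAML1, MAML2 and MAML3. Of these 18, edgeR called 3 lower and 0 higher with sh76, and 4 lower and 1 higher with sh78. The paired fit gave 9 lower, MAML3 among them, and 4 higher with sh76, and 6 lower and 3 higher with sh78. The shares of all tested genes called lower were 2.16% (sh76) and 2.56% (sh78), or 10.7% and 10.1% in the paired fit. At an unadjusted p under 0.05, 7 of the 18 were lower and 3 higher with sh76. The median log2 fold change of these 18 genes was −0.18 with sh76 and −0.12 with sh78, beside 0.01 over all genes in both comparisons. HES4 fell by 0.40 on the log2 scale with sh76 (edgeR adjusted p = 0.00588) and by 0.53 with sh78 (0.000726), HEY1 by 0.52 (0.0488) and 0.72 (0.00805), and HEY2 by 0.71 (0.0333) and 0.66 (0.0438). HES2 fell by 0.94 with sh78 (edgeR adjusted p = 0.0104), and NRARP, a feedback inhibitor of Notch, rose by 0.51 (0.0431).

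ROBO2, a receptor of SLIT2, rose by 1.44 on the log2 scale with sh78 (edgeR adjusted p = 0.00209) and had 0.43 with sh76. ROBO2 was at a low level, with means of 2.49 CPM in scramble, 3.38 in sh76 and 6.82 in sh78. It was the 1 gene called among the 3 SLIT and ROBO genes that passed the count filter, and the paired fit also called ROBO1 higher with sh78, at 0.28. Of 13 subunits of the anaphase promoting complex, the partners of ANAPC4, ANAPC7 and CDC23 each fell by 0.41 with sh78 (edgeR adjusted p = 0.0125 and 0.0277; the paired fit also called ANAPC2 higher), and 0 were called with sh76, with 2 at an unadjusted p under 0.05, 1 by DESeq2 and 2 in the paired fit. SARS, the seryl-tRNA synthetase upstream of SEPSECS, fell by 0.30 with both hairpins (edgeR adjusted p = 0.0239 and 0.0226), 1 of 7 genes of selenocysteine synthesis; the paired fit called 3 lower with sh76 and 4 with sh78. In the other 4 lists, which hold 28 genes (the partners of RFC1, of PDS5A, of LIAS and of STIM2), edgeR called 0 against scramble with either hairpin. At an unadjusted p under 0.05 there were 1 lower with sh76 and 3 lower and 2 higher with sh78, and DESeq2 called 0. The paired fit called 2 lower and 2 higher with sh76, and 3 lower and 4 higher with sh78. Over all genes edgeR called 2.16% lower and 1.43% higher with sh76, and 2.56% and 1.85% with sh78. In the paired fit the shares called lower were 10.7% with sh76 and 10.1% with sh78.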

How the data were processed

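RNA of 9 OVCAR3 libraries (3 groups of 3) was analysed from the authors' deposited table. It holds raw read counts per gene and, beside them, FPKM values the authors computed. All 236964 FPKM values compared equal counts per kilobase of the deposited gene length times a constant factor for each library, within 0.1%. How that factor was set was not tested. HISAT2 2.0.5, featureCounts 1.5.0-p3 and the hg38 build are named per the submitters' processing notes. All sample columns were used, and the 223 interval genes had the positions of GENCODE release 29.

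Counts were filtered with filterByExpr (minimum count 10, minimum total 15), scaled by TMM and fitted with edgeR 4.0.16 (R 4.3.3; robust quasi-likelihood, 1 coefficient per group, all 9 libraries, 6 residual degrees of freedom), with Benjamini-Hochberg adjustment over all 17023 genes. CPM are TMM-scaled, and log2 CPM used a prior count of 2. The common biological coefficient of variation was 10.4%. The procedure was tested on simulated data. DESeq2 1.42.0, limma 3.58.1 on log2(FPKM + 1) and log2(FPKM + 0.1), other scalings and filters, left-out libraries and a replicate block were alternatives.

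Same-numbered libraries deviated together from their group means (9 correlations of 0.14 to 0.39, against −0.31 to 0.06 for the 18 others), so the replicate numbers were taken as pairing the samples, and counts from the paired fit are given beside those of the unpaired fit.

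The interval, its members and the gene lists were chosen with earlier results of these data known. Members named were the 2 ends, the 5 highest and 5 lowest per comparison, the 5 highest by FPKM, the called members and members of the role lists; outside the interval, the 3 nearest tested genes at each end and called genes of the partner lists. RefSeq promoter entries matched 41 of 50 members.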

Additional observations from a re-analysis of the deposited data

Results flagged for a closer look

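Listed here are the 7 members with an edgeR adjusted p under 0.05 for sh78 against sh76, beside 1.97% of all genes called higher in that comparison. All 7 were higher with sh78: AC133963.1 by 0.99 on the log2 scale, PPARGC1A by 0.82, LIMCH1 by 0.45, APBB2 by 0.39, N4BP2 by 0.36, TMEM33 by 0.31 and UCHL1 by 0.27. The members were chosen with hairpin differences known, so these values are a description and support nothing, and none of the 7 was called without sh76 replicate 1.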

How the results depend on the processing

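The members' median log2 fold change was negative with sh76 and sh78 under all alternatives run. With sh76 it was −0.21 on log2(FPKM + 1), a scale that shrinks low genes, and with sh78 −0.07, in place of −0.28 and −0.12. Over the 14 members that overlap no other annotated gene the sh78 median was −0.06. For sh78 against sh76 the median was 0.16, and 0.09 without sh76 replicate 1. The count of called members was less steady. With the replicate block, which used the pairing by replicate number, it was 28 for sh76, 13 for sh78 and 14 for sh78 against sh76, in place of 13, 5 and 7. Limited to those 14 members it was 3, 0 and 2, and without the 5 members at each end 7, 3 and 3; fewer members are counted in both cases. For sh78 against sh76, limma called 2 on log2(FPKM + 1) and 2 on log2(FPKM + 0.1), and the cause was not tested. Leaving out 1 library at a time gave 9 to 15 calls for sh76, 2 to 5 for sh78 and 0 to 7 for sh78 against sh76. Members near the minimum of 10 counts are limited by depth.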
